A study of Rattus norvegicus with 18 samples.

Results

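The comparison of the SAH 7d group with the SAH 1d group asked which genes of the cortex had moved back, stayed changed or come up late by the later day after subarachnoid hemorrhage (SAH), bleeding into the space around the brain. It rested on 12 of the 18 libraries of the series, 6 from rats killed on day 1 and 6 from rats killed on day 7, with 1 library per rat, and it took in all 18444 genes that passed a filter on low counts. The animals were adult Sprague Dawley rats, 8 to 10 weeks old, in which a filament pushed up the internal carotid artery perforated the vessel from inside. The 6 sham rats, used here only as a reference level, had the same operation without the perforation, so all 3 groups shared the anaesthesia with pentobarbital and the neck surgery. The sex of the rats was not stated. The paper gives the tissue as the whole cortex of the operated side, whereas the sample descriptions speak of both sides and of mice. Rat identifiers name the genes in the table. Each rat was sampled once, so the comparison is between animals and not within them.

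After SAH, blood breakdown products, raised pressure and lack of flow first set off a stress response in neurons, glia and vessels. This acute phase is known for heat shock chaperones, which refold damaged proteins, and for cytokines, chemokines and adhesion molecules that draw in leukocytes. In the following days microglia and incoming macrophages clear debris, and some of them load peptides on MHC class II molecules, the surface proteins that present antigen to CD4+ T cells. In RNA from whole tissue, fewer cells of a type and less RNA per cell cannot be told apart.

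A pair of libraries stood apart from the rest of their groups, and results are therefore given with and without both. The pair was chosen for standing apart in these same data. Leaving it out by itself narrows the spread within the groups, so calls and adjusted p without the pair describe the remaining libraries and are no separate evidence. SAH 7d-5 had the highest value of its group in 38.7% of all tested genes and SAH 1d-3 in 33.1%. The summed level of 9 macrophage and monocyte markers was 8355 CPM (counts scaled to the library size) in SAH 7d-5 and 104 to 269 CPM in the other 5 SAH 7d libraries. It was 707 CPM in SAH 1d-3 and 111 to 151 CPM in the other 5 SAH 1d libraries. The summed level of 7 neuron markers was lowest in the same libraries, with 2216 CPM in SAH 7d-5 against 6262 to 8389 CPM and 4144 CPM in SAH 1d-3 against 4753 to 5683 CPM. Choroid plexus markers, from the tissue that makes cerebrospinal fluid, summed to 1090.5 CPM in SAH 1d-6 and to 749.8 CPM in SAH 1d-4, whereas the other 4 SAH 1d libraries held 4.68 to 37.3 CPM. The SAH 1d libraries totalled 27270026 to 38271014 counts and the SAH 7d libraries 28867675 to 33107697, so depth overlapped.

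With all 12 libraries, most of what differed on day 7 was lower than on day 1. Of 18444 tested genes, 200 (1.08%) were lower and 52 (0.282%) higher at SAH 7d at a Benjamini-Hochberg adjusted p below 0.05 in edgeR's quasi-likelihood test, which is what "changed", "rose" and "fell" mean here. A DEG (differentially expressed gene) also had to differ by at least 1 on the log2 scale, and 100 lower (0.542%) and 28 higher genes (0.152%) did. Without SAH 7d-5 and SAH 1d-3 the changed genes numbered 1382 lower (7.49%) and 1130 higher (6.13%), with 384 lower (2.08%) and 110 higher DEGs (0.596%). On those libraries DESeq2 put 1685 lower and 1697 higher genes below the same adjusted p, an even split, with 421 lower and 138 higher DEGs. All 252 genes changed with every library were also changed, in the same direction, without the pair, and they made up 10.03% of the 2512 changed there. The count depended on single libraries, from 63 DEGs without SAH 7d-2 to 453 without SAH 7d-5, and it was 74 to 85 without SAH 1d-1, SAH 1d-2, SAH 1d-5, SAH 7d-1, SAH 7d-3 or SAH 7d-6. It was 45 without SAH 1d-4 and SAH 1d-6, the libraries with choroid plexus markers.

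**Figure D1:**
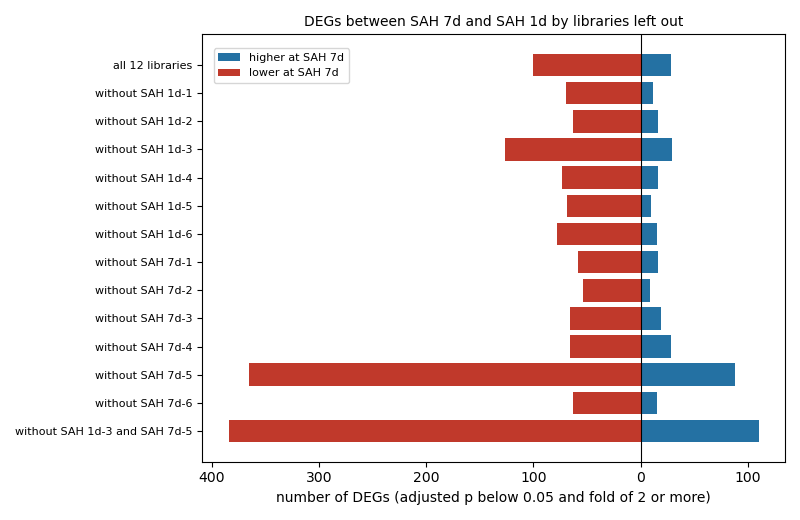
Number of DEGs between SAH 7d and SAH 1d (x axis) with all 12 libraries, with each library left out in turn, and with SAH 7d-5 and SAH 1d-3 left out together (y axis). Red bars to the left count genes lower at SAH 7d and blue bars to the right genes higher at SAH 7d. The longest bars, 453 DEGs without SAH 7d-5 and 494 without the pair, compare with 128 for all libraries.

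To describe functions, 38 gene lists with 574 genes were used, 545 of which passed the filter. With all libraries 35 of the 545 were changed (6.42%, against 1.37% of all tested genes), 26 lower and 9 higher, and they fell in 17 lists. Without SAH 7d-5 and SAH 1d-3, 182 were changed (33.4%, against 13.6% of all tested genes), 132 lower and 50 higher, and all 38 lists had at least 1. The median log2 fold change over all tested genes was 0.028 with all libraries and -0.0030 without the pair. Among the lists the lowest medians with all libraries were those of heat shock chaperones (-1.34) and reactive astrocyte genes (-1.26), and the highest were those of MHC class II (2.71) and homeostatic microglia (1.5). The lists were written with earlier results of these data known, so their medians describe them and test nothing. In the 21 lists without a changed member, 76 of 315 tested members had an unadjusted p below 0.05 in edgeR, DESeq2 called 19 and limma voom with quality weights called 68 of them. A gene found in more than 1 of the lists is counted in each.

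**Figure D2:**
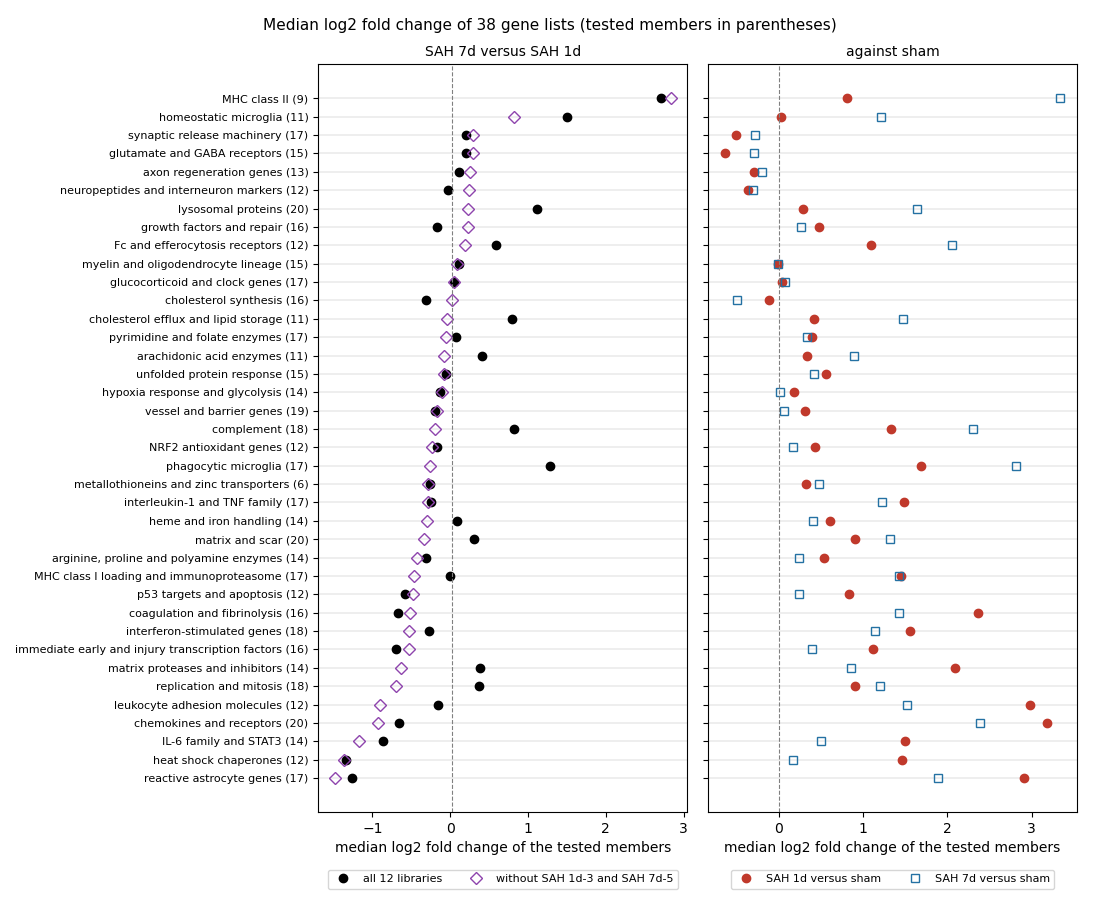
Median log2 fold change of the tested members of 38 gene lists (x axis, number of tested members in parentheses), ordered by the value without SAH 7d-5 and SAH 1d-3. The left panel compares SAH 7d with SAH 1d (filled circles for all 12 libraries, open diamonds without the pair, dashed line for the median of all tested genes) and the right panel each SAH group with sham (filled circles for SAH 1d, open squares for SAH 7d, dashed line at no difference). MHC class II stood highest on the left and heat shock chaperones and reactive astrocyte genes lowest, while the lists for phagocytic microglia, replication and mitosis, and complement moved most between circle and diamond.

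Heat shock chaperones fell. Of 12 tested members 10 fell between day 1 and day 7 and none rose, with a median log2 fold change of -1.34, and in 9 of the 12 the groups did not overlap, against 2.11% of all tested genes with non-overlapping groups and a lower SAH 7d level. Without SAH 7d-5 and SAH 1d-3, 11 fell, and 11 did not overlap, against 6.67% of all tested genes. All 12 were higher at SAH 1d than in sham (14.9% of all tested genes), and at SAH 7d their median difference from sham was 0.18 on the log2 scale. These comparisons share the SAH 1d or the SAH 7d libraries with the main one and are no separate evidence. Without SAH 1d-4 and SAH 1d-6, 8 members still fell.

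Hspa1a and Hspb1 had the largest falls of the list. Hspa1a, the stress-induced Hsp70, lay at 324 to 549 CPM (median 385) at SAH 1d and 3.3 to 25.6 CPM (median 7.53) at SAH 7d, with 0.0331 to 3.42 CPM (median 1.14) in sham. The 6 SAH 7d libraries were all far below the 6 SAH 1d libraries but above the sham median, and the log2 fold change was -5.29 ± 0.51 (SE, n = 6 per group, adjusted p = 0.000406 in edgeR). Rat Hspa1a has a near-identical copy, so its reads may include those of the copy. Hspb1, the small chaperone Hsp27 that astrocytes and vessels make under stress, lay at 110.0 to 336 CPM (median 134) at SAH 1d and 6.53 to 27.3 CPM (median 8.95) at SAH 7d and fell by 3.75 on the log2 scale (adjusted p = 0.00136 in edgeR). The small chaperone Hspb8 and Bag3, the co-chaperone that binds it and directs damaged proteins to autophagy, fell together, Hspb8 from a median of 74 to 27.8 CPM and Bag3 from 43.1 to 15.2 CPM. Among the 10, only Bag3 and the co-chaperone Dnajb1 overlapped between the days, Bag3 through SAH 7d-5 at 34.8 CPM. Without the pair of libraries the log2 fold change of Bag3 was -1.52 (adjusted p = 0.000225 in edgeR).

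The mitochondrial chaperones, the partners of Hsp70 and an Hsp90 gene fell as well. Hspd1, the Hsp60 of mitochondria, lay at 560.1 to 851 CPM (median 645) at SAH 1d and 255 to 285 CPM (median 268) at SAH 7d, beside 234 to 281 CPM (median 268) in sham. Its 6 SAH 7d values were the tightest of the list, and the log2 fold change was -1.31 ± 0.11 (adjusted p = 0.000134 in edgeR). Its partner Hspe1, the Hsp10 that caps the Hsp60 ring, fell by 1.39 on the log2 scale, from a median of 48.1 to 18.1 CPM. Hsph1, which exchanges the nucleotide of Hsp70, lay at 875 to 2109 CPM (median 1581) at SAH 1d and 221 to 450.2 CPM (median 386) at SAH 7d and fell by 2.07 on the log2 scale (adjusted p = 0.000931 in edgeR). The stress-inducible Hsp90 gene Hsp90aa1 fell by 1.02 on the same scale, and the Hsp40 co-chaperones Dnaja1 and Dnajb1 by 1.08 and 0.88. The 2 members not called were Hspa8, the constitutive Hsc70 (log2 fold change -0.38, adjusted p = 0.0934 in edgeR), and the small chaperone Cryab (-0.75, adjusted p = 0.132 in edgeR).

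Heat shock genes are known to be switched on by HSF1, which binds inverted repeats of a short element. The RefSeq promoter sequences (build GRCr8) were therefore searched, from 150 bases before the annotated start up to it, for GAANNTTC or TTCNNGAA, which read the same on both strands and may overlap. The table held 10 of the 12 tested members, and 7 of the 10 had a match, compared with 8.42% of all 33469 promoters in it. Of the 9 members with an entry that fell, 6 had one, and Hspa1a, Dnaja1 and Hspd1 had none in this window. The 4 sequences below show members that fell and held 1 to 3 matches, in capitals, at 31 to 132 bases before the start.
Hspb1 (chr12:26432302-26432451, minus strand): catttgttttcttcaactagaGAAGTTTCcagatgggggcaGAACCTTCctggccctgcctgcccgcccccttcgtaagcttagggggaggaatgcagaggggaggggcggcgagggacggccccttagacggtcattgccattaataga
Hsph1 (chr12:10427218-10427367, plus strand): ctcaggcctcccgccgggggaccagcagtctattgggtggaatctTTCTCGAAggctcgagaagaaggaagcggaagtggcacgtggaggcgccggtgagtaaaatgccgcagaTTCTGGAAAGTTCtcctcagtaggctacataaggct
Hspe1 (chr9:64084177-64084326, plus strand): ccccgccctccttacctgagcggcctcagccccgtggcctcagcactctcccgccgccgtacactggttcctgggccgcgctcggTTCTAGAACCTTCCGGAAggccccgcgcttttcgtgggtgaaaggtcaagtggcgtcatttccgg
Bag3 (chr1:192533310-192533459, plus strand): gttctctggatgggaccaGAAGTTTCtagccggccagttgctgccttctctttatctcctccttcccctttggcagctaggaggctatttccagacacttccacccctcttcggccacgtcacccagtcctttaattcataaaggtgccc
The windows of Hspe1 and Hspd1 overlap head to head on chromosome 9, so the pair shares part of its upstream sequence. The matches are a description of these letters and not of bound sites.

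Single genes of other stress and repair functions also returned to levels in or near the sham range. Hbegf, a membrane-bound ligand of the EGF receptor, lay at 24.4 to 112 CPM (median 30.6) at SAH 1d and 5.49 to 7.0 CPM (median 6.12) at SAH 7d and in sham at 5.22 to 6.23 CPM (median 5.55). SAH 1d-3 was the highest library and all 6 SAH 7d values were close together, with a log2 fold change of -2.82 ± 0.37 (adjusted p = 0.00272 in edgeR). Fgf2, a growth factor of astrocytes and vessels, fell by 1.21 on the log2 scale, from 3.05 to 5.73 CPM (median 3.76) to 1.39 to 2.32 CPM (median 1.54). Chac1, which breaks down glutathione and is a target of the ATF4 arm of the stress response, lay at 19.7 to 35.8 CPM (median 28.3) at SAH 1d and 6.41 to 11.1 CPM (median 10.7) at SAH 7d and fell by 1.56 (adjusted p = 0.00098 in edgeR). It was the 1 of 15 tested genes of the unfolded protein response that changed with all libraries, and without the pair the stress kinase inhibitor Trib3 (-3.51) and the transcription factor Ddit3 (-0.45) fell too. Hspa5, the chaperone BiP that marks that response, had medians of 477 and 509 CPM (log2 fold change 0.04, 95% confidence interval -0.59 to 0.67).

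**Figure D3:**
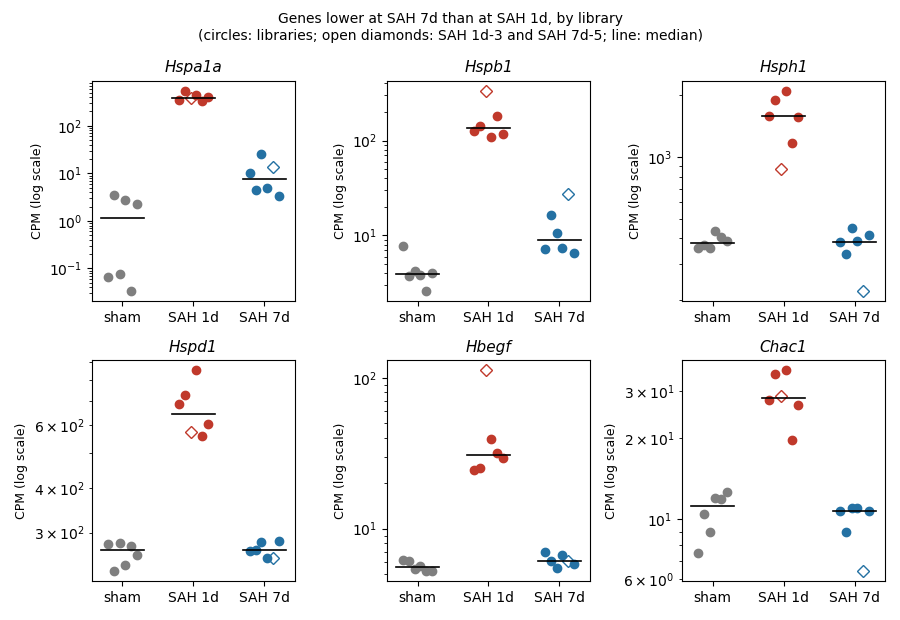
CPM (log scale) of 6 genes that fell between SAH 1d and SAH 7d, by library in the 3 groups (x axis: sham, SAH 1d, SAH 7d), with the median of each group as a line and SAH 7d-5 and SAH 1d-3 as open diamonds. In each of the 6 the SAH 7d libraries lay below every SAH 1d library, and for Hspd1, Hbegf and Chac1 the SAH 7d median was near that of sham.

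Single genes of nucleotide and one-carbon metabolism, the p53 response and replication also fell. Among 17 tested enzymes of pyrimidine and folate metabolism 3 fell and none rose (1.08% of all tested genes were lower), namely Upp1, which splits uridine (-1.6), and the mitochondrial folate enzymes Mthfd2 (-1.39) and Shmt2 (-0.96), all as log2 fold changes. Shmt2 lay at 31.8 to 64.4 CPM (median 45.3) at SAH 1d and 20.2 to 33.4 CPM (median 21.8) at SAH 7d, with SAH 7d-5 the highest of the SAH 7d libraries and inside the SAH 1d range. Among 12 tested p53 targets 2 fell, Phlda3, an inhibitor of Akt signalling, by 0.57 and Sesn2, which restrains mTOR under stress, by 1.12 on the log2 scale. Without SAH 7d-5 and SAH 1d-3, 7 of the 12 fell, against 7.49% of all tested genes, among them Mdm2, the ligase that degrades p53 (-0.57), and the cytokine Gdf15 (-2.95). Of 18 tested replication and mitosis genes 1 fell, Mcm4 of the helicase that unwinds DNA (-0.88, adjusted p = 0.037 in edgeR). Without the pair the helicase subunits Mcm2, Mcm3, Mcm5 and Mcm6 fell as well, by 1.24 to 2.64 on the log2 scale, whereas the mitosis marker Mki67 was not called in either fit (medians 4.06 and 3.54 CPM, and 45.4 CPM in SAH 7d-5). None of these falls was called with every library left out in turn. The call of Mcm4 ended with any of 11 libraries left out, that of Mthfd2 with any of 10, that of Sesn2 with any of 9, those of Shmt2 and Upp1 with any of 8 and that of Phlda3 with any of 7, with adjusted p up to 0.111 in edgeR.

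Several of the largest falls were in secreted factors and their receptors. Il11 and Lif, cytokines of the IL-6 family that act through gp130 and STAT3, were at 0.332 to 89.7 CPM (median 1.69) and 0.769 to 28.2 CPM (median 1.42) on day 1 and at no more than 0.171 and 0.242 CPM in any library on day 7. The highest value of both was that of SAH 1d-3, and without the pair of libraries the log2 fold changes were -4.54 and -4.84 in place of -7.52 and -5.99. Ptx3, a soluble pattern receptor also used as a marker of reactive astrocytes, lay at 5.2 to 112 CPM (median 17.7) at SAH 1d and 0.209 to 4.63 CPM (median 0.466) at SAH 7d, with SAH 7d-5 the highest on day 7 (-4.76, adjusted p = 0.034 in edgeR). Tnfrsf12a, the receptor of TWEAK, fell by 2.98, Adamts1, a protease of the matrix, by 3.01 and the transcription factor Maff by 3.23 on the log2 scale. Hpx, which binds free heme, lay at 0.954 to 5.35 CPM (median 1.6) at SAH 1d and 0 to 0.514 CPM (median 0.111) at SAH 7d, and it was the 1 of 14 heme and iron genes that changed with all libraries. These calls depended on single libraries. They ended with 3 (Adamts1), 6 (Lif, Maff), 7 (Il11), 8 (Ptx3), 10 (Tnfrsf12a) or 11 (Hpx) of the 12 libraries left out in turn, with adjusted p up to 0.119 in edgeR, and the highest day 1 value of each was that of SAH 1d-3.

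Esr1, the estrogen receptor alpha, lay at 5.73 to 26.9 CPM (median 17.6) at SAH 1d and 1.32 to 3.23 CPM (median 1.58) at SAH 7d, beside 1.08 to 3.28 CPM (median 2.1) in sham. Its log2 fold change was -3.23 ± 0.35 (adjusted p = 0.000931 in edgeR), and the call held with each library left out in turn. Dhrs7l1, a gene of the short-chain dehydrogenase family, was listed at 0 in all 6 SAH 7d libraries and at 1.51 to 2.37 CPM (median 1.88) at SAH 1d, and sham reached 1.73 CPM (median 0.799). Bhlhe23, a transcription factor, Ptprh, a receptor phosphatase, and FAM187A completed the 12 largest falls without overlap, with log2 fold changes of -3.93, -3.25 and -3.84 and SAH 7d medians of 0.151, 0.184 and 0.101 CPM. Their calls ended with 2 (Bhlhe23), 9 (Ptprh) and 8 (FAM187A) of the 12 libraries left out in turn, with adjusted p up to 0.085 in edgeR. Arntl, the clock activator BMAL1, was the 1 of 17 glucocorticoid and clock genes to change, from 48.9 to 70.8 CPM (median 52.2) to 26.8 to 45.9 CPM (median 37.6), and its call ended with 9 of the 12 libraries left out in turn (adjusted p up to 0.113 in edgeR). The hour of sampling was not given.

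For chemokines falls passed the test without SAH 7d-5 and SAH 1d-3 and not with them. Of 20 tested chemokines and their receptors 1 rose and none fell with all libraries. Without the pair 9 fell and 2 rose, against 7.49% of all tested genes lower and 6.13% higher. Ccl2, which draws monocytes, lay at 8.02 to 248 CPM (median 20.1) at SAH 1d and 0 to 22.7 CPM (median 0.376) at SAH 7d, where the highest values were those of SAH 7d-5 and SAH 1d-3. With all 12 libraries its log2 fold change was -3.77 (adjusted p = 0.236 in edgeR). It was 8.02 to 22.4 CPM (median 19.9) in the 5 remaining SAH 1d libraries and 0 to 0.633 CPM (median 0.205) in the 5 remaining SAH 7d libraries, and there the log2 fold change was -5.81 ± 0.51 (adjusted p = 9.5e-05 in edgeR). The monocyte chemokine Ccl7 and Cxcl10, an interferon-induced ligand of CXCR3, behaved alike, with log2 fold changes of -3.39 and -1.78 with all libraries and -5.24 and -2.97 without the pair, called only in the latter. The monocyte chemokine Ccl12 was listed at 0 in all 6 sham libraries and the neutrophil chemokine Cxcl1 reached 0.132 CPM there. They had medians of 1.49 and 1.46 CPM on day 1 and 0.118 and 0.0323 CPM on day 7.

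Among genes of adhesion, coagulation and cytokine signalling more falls were called without the pair than with it. Sele, the endothelial selectin that slows leukocytes, lay at 2.62 to 57 CPM (median 5.9) at SAH 1d and 0 to 2.06 CPM (median 0.427) at SAH 7d, and was called without the pair (-3.95, adjusted p = 0.00175 in edgeR). With all libraries its fall was larger and the days did not overlap, but it was not called (-4.45, adjusted p = 0.0585). Icam1, the endothelial ligand of leukocyte integrins, went from -0.68 to -1.29 on the log2 scale when the pair was left out. Of 16 tested coagulation and fibrinolysis genes none changed with all libraries, and 6 fell (against 7.49% of all tested genes) and 1 rose (against 6.13%) without the pair. The transcription factor Stat3 and Socs3, its feedback inhibitor, fell without the pair by 0.82 and 3.47 on the log2 scale, as 2 of the 8 that fell among 14 IL-6 family genes (against 7.49% of all tested genes), where Il11 and Lif were the 2 called with all libraries. Of 17 genes of the interleukin-1 and TNF families Tnfrsf12a alone fell with all libraries, against 1.08% of all tested genes. Without the pair 6 fell (against 7.49%) and 1 rose (against 6.13%, a share near that of the list). Il1b, the cytokine cut to its active form by the inflammasome, fell there by 2.1 (log2 fold change -2.55 with all libraries, not called), its decoy receptor Il1r2 by 4.52, and the nuclear alarmin Il33 rose by 0.78 on the log2 scale. Tnf lay at 0.453 to 1.83 CPM (median 1.3) at SAH 1d and 0 to 2.36 CPM (median 0.115) at SAH 7d, with SAH 7d-5 above every SAH 1d library, and its log2 fold change was -1.35 with all libraries and -3.71 without the pair. Kng1, the kininogen from which bradykinin is cut, was listed at 0 in the median sham library, at 3.84 CPM in the median SAH 1d library and at 0.15 CPM in the median SAH 7d library, with 14.7 CPM in SAH 7d-5.

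**Figure D4:**
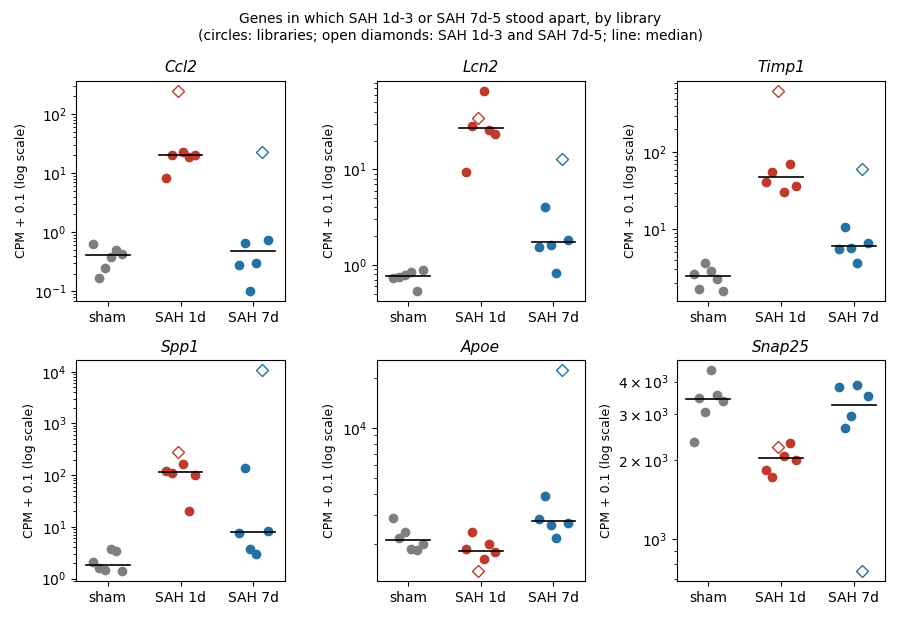
CPM plus 0.1 (log scale) of 6 genes by library in the 3 groups (x axis: sham, SAH 1d, SAH 7d), with group medians as lines and SAH 7d-5 and SAH 1d-3 as open diamonds. In Ccl2, Lcn2 and Timp1 the SAH 7d diamond lay above the other SAH 7d libraries and within or above the SAH 1d circles, in Spp1 and Apoe it lay above every other library, and in Snap25 it lay below all of them.

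Reactive astrocyte genes fell in 2 of 17 members with all libraries (Hspb1 and Ptx3), against 1.08% of all tested genes, and in 11 without SAH 7d-5 and SAH 1d-3, against 7.49%, with medians of -1.26 and -1.48 on the log2 scale. Lcn2, a secreted siderophore binder that marks acute astrocyte reaction, lay at 9.17 to 66.5 CPM (median 27.2) at SAH 1d and 0.719 to 12.8 CPM (median 1.62) at SAH 7d. Timp1, an inhibitor of matrix proteases, lay at 30 to 640.3 CPM (median 48.5) at SAH 1d and 3.56 to 61.5 CPM (median 6.04) at SAH 7d, where the highest values of both groups were again SAH 7d-5 and SAH 1d-3. Without them the log2 fold changes were -4.02 for Lcn2 and -2.9 for Timp1, both called, and Vim, an intermediate filament, fell by 0.81 without the pair (log2 fold change 0.24 with all libraries, where SAH 7d-5 held 1651 CPM). Gfap, the defining filament of astrocytes, was not called in either fit. It lay at 2244 to 3769 CPM (median 2826) at SAH 1d and 476 to 2548 CPM (median 1520.2) at SAH 7d and at 285 to 540.0 CPM (median 339.6) in sham, so that the days overlapped and the SAH 7d median was above the sham range. Its log2 fold change was -0.91 (95% confidence interval -1.69 to -0.14, adjusted p = 0.245 in edgeR).

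Heme oxygenase and several matrix genes were likewise called without the pair and not with it. Hmox1, which opens the heme ring, lay at 57.2 to 379.8 CPM (median 77.9) at SAH 1d and 7.56 to 238 CPM (median 11.1) at SAH 7d, beside 4.45 to 7.26 CPM (median 5.95) in sham, and it fell by 2.74 without the pair (adjusted p = 0.000165 in edgeR, and 0.517 with all libraries). All 6 SAH 7d libraries were above all 6 sham libraries, and 238 CPM in SAH 7d-5 exceeded the median of day 1. The ferroxidase Cp fell by 1.13 without the pair. Among 20 matrix and scar genes none changed with all libraries and 7 fell without the pair, against 7.49% of all tested genes, among them the basement membrane collagens Col4a1 (-1.08) and Col4a2 (-1.06). The fibrillar collagen Col3a1 was at 1788 CPM in SAH 7d-5 and at 45.7 to 100.3 CPM in the other 5 SAH 7d libraries, beside 61.1 to 118 CPM (median 84.7) on day 1, and was not called in either fit. Meningeal fibroblast markers summed to 1823 CPM in SAH 7d-5 and to 184 to 359 CPM in the other SAH 7d libraries, and their part in the collagen values was not tested.

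MHC class II genes rose between the days. Of 9 tested members 5 rose between day 1 and day 7 and none fell, against 0.282% of all tested genes higher, and without SAH 7d-5 and SAH 1d-3 it was 6, against 6.13%. The days did not overlap in 2 members with all libraries and in 6 without the pair, against 0.938% and 5.06% of all tested genes with a higher SAH 7d level. At SAH 1d 3 members were higher than in sham and the list's median difference was 0.81 on the log2 scale, and at SAH 7d that median was 3.34. At SAH 7d no gene passed edgeR's test against sham (2842 had an unadjusted p below 0.05, DESeq2 called 370 DEGs and limma voom 1), but in 6 members (Cd74, RT1-Ba, RT1-Bb, RT1-Da, RT1-Db1 and Ciita) every SAH 7d library was above every sham library, which held for 0.797% of all tested genes. Reads of RT1 genes can be shared between near-identical copies, so the split among them is uncertain. Without SAH 1d-4 and SAH 1d-6 none of the 5 was called, with log2 fold changes of 3.62 for RT1-Ba (adjusted p = 0.0857 in edgeR) and 2.81 for Cd74 (adjusted p = 0.0963), sizes close to those with all libraries. Leaving out SAH 1d-1, SAH 1d-2 or SAH 1d-5 alone left 3 members called, and RT1-Ba, RT1-Bb and Cd74 were called with every library left out in turn.

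RT1-Ba, the alpha chain of the rat class II molecule RT1.B, lay at 1.96 to 6.7 CPM (median 2.78) at SAH 1d and 7.97 to 95.1 CPM (median 38) at SAH 7d, with 0.826 to 5.68 CPM (median 1.4) in sham. The groups did not overlap, and the log2 fold change was 3.59 ± 0.59 (adjusted p = 0.0117 in edgeR). The beta chain RT1-Bb lay at 1.36 to 4.01 CPM (median 2.28) at SAH 1d and 6.1 to 27 CPM (median 15.7) at SAH 7d (2.71 ± 0.40, adjusted p = 0.00627). The chains of the other class II molecule, RT1-Da and RT1-Db1, rose by 3.13 and 2.94 on the log2 scale and overlapped through SAH 1d-3, their highest SAH 1d library. Cd74, the invariant chain that guards the peptide groove, was at 59.5, 358, 209.6, 34.5, 130.2 and 218 CPM in SAH 7d-1 to SAH 7d-6 and at 18.2 to 35.6 CPM (median 21.1) on day 1. The order of the SAH 7d libraries was the same for RT1-Ba, which was at 11.3, 95.1, 47, 7.97, 29 and 60.2 CPM. In both, SAH 7d-2 was highest and SAH 7d-4 lowest, and SAH 7d-5, which led the macrophage markers, was in the middle.

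The remaining class II genes differed from these. Ciita, the coactivator that switches class II genes on, lay at 0.181 to 1.24 CPM (median 0.266) at SAH 1d and 0.445 to 3.57 CPM (median 1.44) at SAH 7d and rose without the pair of libraries (2.17, adjusted p = 0.00753 in edgeR), but was not called with all (1.88, adjusted p = 0.149). RT1-DMa and RT1-DMb, which exchange peptides on class II molecules, had higher levels at SAH 1d than in sham (log2 differences 1.2 and 1.67, both called). They were not called between the days, with medians of 18.6 and 15.5 CPM for RT1-DMa and 21 and 20.9 CPM for RT1-DMb. RT1-DOb, the beta chain of the regulator of that exchange, was at 1.36 CPM in the median SAH 7d library and was not called either.

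Class II promoters are known for a short block of elements that ends in a CCAAT sequence, the Y box, bound by NF-Y. In the same windows of 150 bases, CCAAT or its reverse complement ATTGG was found in 6 of the 7 tested class II members with an entry and in 23.5% of all 33469 promoters. Of the 5 members that rose, Cd74 was the 1 without a match in the window. The 4 chains that rose are shown, with the match nearest to the start 43 to 61 bases before it. RT1-DOb and RT1-DMa, which were not called between the days, also had matches, the nearest 57 and 34 bases before the start. Capitals mark CCAAT or ATTGG.
RT1-Ba (chr20:4576907-4577056, plus strand): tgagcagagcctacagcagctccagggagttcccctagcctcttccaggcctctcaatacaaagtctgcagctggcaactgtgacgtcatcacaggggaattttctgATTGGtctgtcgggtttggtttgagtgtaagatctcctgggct
RT1-Bb (chr20:4604119-4604268, minus strand): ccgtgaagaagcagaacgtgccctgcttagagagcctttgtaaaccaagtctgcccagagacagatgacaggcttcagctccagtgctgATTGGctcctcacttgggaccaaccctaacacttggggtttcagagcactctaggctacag
RT1-Da (chr20:4515265-4515414, plus strand): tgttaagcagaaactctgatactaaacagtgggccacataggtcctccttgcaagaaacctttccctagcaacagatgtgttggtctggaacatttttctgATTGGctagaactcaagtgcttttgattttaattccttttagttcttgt
RT1-Db1 (chr20:4560163-4560312, minus strand): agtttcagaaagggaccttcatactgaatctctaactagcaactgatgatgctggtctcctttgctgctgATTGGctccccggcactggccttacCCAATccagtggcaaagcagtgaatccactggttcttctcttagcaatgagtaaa
All 4 lie on chromosome 20 within the rat MHC. Among heat shock chaperones the same letters were found in 3 of 10 promoters, and the heat shock element in 1 of the 7 class II promoters.

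Selplg and Tmem119 also rose, without overlap between the days. Selplg, the selectin ligand PSGL-1, lay at 13 to 26.3 CPM (median 20.4) at SAH 1d and 37.2 to 122 CPM (median 74.8) at SAH 7d, and at 23.2 to 48.6 CPM (median 30.4) in sham (2.0 ± 0.30, adjusted p = 0.00627 in edgeR). Tmem119, a surface protein of resident microglia, lay at 10.9 to 20.9 CPM (median 16.7) at SAH 1d and 30.1 to 78.3 CPM (median 39.5) at SAH 7d, and at 10.6 to 40.1 CPM (median 26.7) in sham (1.56 ± 0.26, adjusted p = 0.0123 in edgeR). It was the 1 of 11 tested homeostatic microglia genes that rose with all libraries, against 0.282% of all tested genes. All 11 had positive log2 fold changes and an unadjusted p below 0.05 in edgeR, and DESeq2 called 8. Without the pair 4 rose, against 6.13%, among them the purinergic receptors P2ry12 (1.46) and P2ry13 (0.98). The median log2 fold change of the list was 1.5 with all libraries and 0.82 without the pair. P2ry12 and P2ry13 had been lower at SAH 1d than in sham, by 1.19 and 1.06 on the log2 scale. The summed level of 5 tested microglia markers was 151, 385, 138, 121, 690.0 and 276 CPM in SAH 7d-1 to SAH 7d-6 and 59.1 to 120.4 CPM at SAH 1d. Its part in the class II, Selplg and Tmem119 values was not tested. Without SAH 1d-4 and SAH 1d-6 the adjusted p was 0.0576 for Selplg and 0.0681 for Tmem119 in edgeR, and both calls held with each library left out in turn.

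Cd4, carried by helper T cells and, in rats, also by macrophages and microglia, lay at 5.02 to 7.35 CPM (median 5.85) at SAH 1d and 7.91 to 71.4 CPM (median 23.3) at SAH 7d (2.27 ± 0.49, adjusted p = 0.0436 in edgeR). The call ended with any of 9 libraries left out, at an adjusted p up to 0.105. Cd3e, a defining chain of the T cell receptor complex, stayed at 0.171 to 2.0 CPM at SAH 7d. Cd8a was at 243 CPM in SAH 7d-5, where Cd3e was at 2.0 CPM, and at no more than 1.52 CPM in the other SAH 7d libraries. Siglec5, a sialic acid receptor of myeloid cells, rose by 2.32 on the log2 scale, from 1.63 to 3.54 CPM (median 2.53) to 3.9 to 26.4 CPM (median 9.11), after a lower level at SAH 1d than in sham (-1.45, adjusted p = 0.0241 in edgeR). The rise of Siglec5 lost its call with any of 6 libraries left out (adjusted p up to 0.075 in edgeR) and without SAH 1d-4 and SAH 1d-6 (adjusted p = 0.102). Nccrp1, an F-box protein gene, rose from 0.0761 to 0.347 CPM (median 0.243) to 0.616 to 2.85 CPM (median 1.87) (2.96). Without the pair, Fcrl2, of the Fc receptor-like family, also rose (5.17, adjusted p = 0.0315 in edgeR). It lay at 0.384 to 1.12 CPM (median 1.0) in the 5 remaining SAH 1d libraries. In the 5 remaining SAH 7d libraries it lay at 1.4 to 142 CPM (median 2.12), so the medians differed far less than this fold change. In SAH 7d-5 it was at 435 CPM, and sham reached 9.74 CPM.

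**Figure D5:**
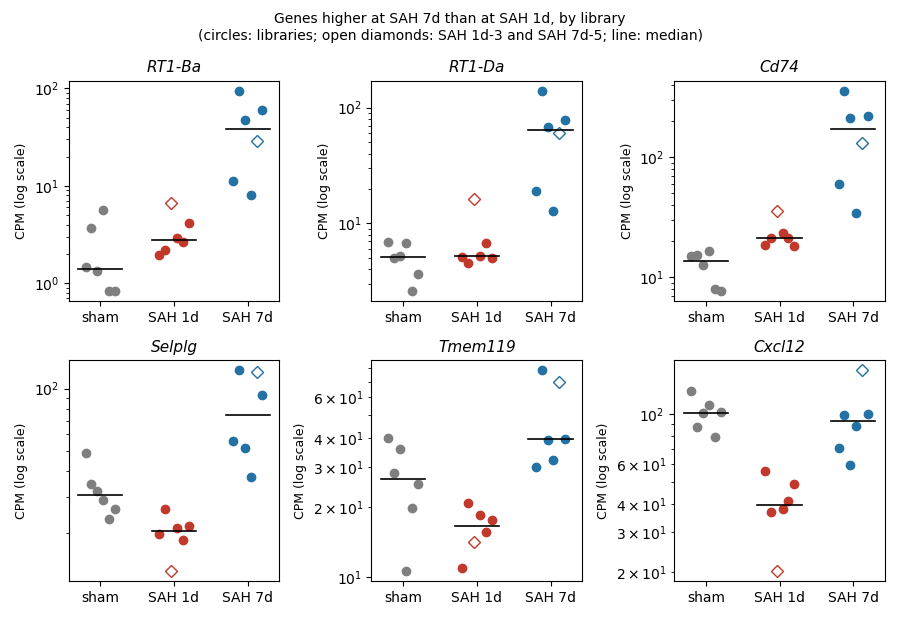
CPM (log scale) of 6 genes that rose between SAH 1d and SAH 7d, by library in the 3 groups (x axis: sham, SAH 1d, SAH 7d), with group medians as lines and SAH 7d-5 and SAH 1d-3 as open diamonds. RT1-Ba, RT1-Da and Cd74 were above the sham range in every SAH 7d library, whereas Cxcl12 was below the sham range in every SAH 1d library and overlapped it on day 7.

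A further group of genes rose from a day 1 level below sham. Cxcl12, the chemokine that vessels and meninges make without injury, lay at 20.1 to 55.7 CPM (median 39.5) at SAH 1d and 59.6 to 156 CPM (median 93.4) at SAH 7d, and at 78.8 to 126 CPM (median 101) in sham. It was lower at SAH 1d than in sham (-1.33, adjusted p = 0.000679 in edgeR) and rose by 1.25 by day 7 (adjusted p = 0.0363 in edgeR, up to 0.0853 in the 8 fits without 1 library that ended the call, and 0.136 without SAH 1d-4 and SAH 1d-6). The retinoid isomerase Rpe65, the collagen gene Col9a2 and Calr4, a calreticulin family gene, showed the same order, with SAH 1d below sham (-1.49, -0.64 and -2.09 on the log2 scale) and SAH 7d above SAH 1d (1.05, 1.13 and 2.09). Oat, the mitochondrial enzyme that links ornithine to proline, rose from 109 to 125 CPM (median 113) to 138 to 163 CPM (median 159). Its difference was small but the groups did not overlap (0.42 ± 0.074, adjusted p = 0.016 in edgeR), and sham lay at 148 to 159 CPM (median 150.2). The calls of Oat and Calr4 ended without SAH 7d-2 (adjusted p = 0.0502 for each in edgeR) and that of Rpe65 with any of 7 libraries left out. Ogn, a matrix proteoglycan of meningeal fibroblasts, rose from 23.1 to 44.4 CPM (median 34.4) to 43.3 to 174 CPM (median 75.6). It was the 1 of 7 markers of those cells that rose with all libraries, against 0.282% of all tested genes. Without SAH 7d-5 and SAH 1d-3, 4 of the 7 rose, against 6.13%.

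Neuronal genes were higher on day 7 than on day 1 when SAH 7d-5 and SAH 1d-3 were left out. None of 17 tested synaptic release genes changed with all libraries, whereas 7 rose (against 6.13% of all tested genes) and none fell without the pair, with a median log2 fold change of 0.29 beside -0.0030 over all tested genes. At SAH 1d 13 of the 17 were lower than in sham, against 10.5% of all tested genes. Snap25, a plasma membrane SNARE of synaptic release, was at 750.4 CPM in SAH 7d-5 and at 2645 to 3868 CPM (median 3529.7) in the other 5 SAH 7d libraries. The 5 SAH 1d libraries without SAH 1d-3 held 1725 to 2317 CPM (median 2002) and the sham libraries 2357 to 4412 CPM (median 3418). The log2 fold change was 0.52 ± 0.30 with all libraries (adjusted p = 0.447 in edgeR) and 0.75 ± 0.12 without the pair (adjusted p = 0.00225). The vesicle SNARE Vamp2 (0.46), the fusion regulator Cplx2 (0.55) and the vesicular glutamate transporters Slc17a6 (0.84) and Slc17a7 (0.29) rose in the same fit.

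Of 15 tested glutamate and GABA receptor and transmitter genes 5 rose without the pair (against 6.13% of all tested genes), after 11 had been lower at SAH 1d than in sham (against 10.5%). Among them the AMPA receptor subunits Gria2, Gria3 and Gria4 rose by 0.53, 0.64 and 0.60 on the log2 scale. Among 13 genes tied to axon growth 6 rose (against 6.13% of all tested genes) and 1 fell (against 7.49%) without the pair. The growth cone protein Gap43 (0.63), the neurofilament Nefl (0.61), Stmn2 (0.48) and the neuronal tubulin Tubb3 (0.56) were among those that rose, and the tubulin Tubb6, which is tied to axon injury, fell by 2.34 on the log2 scale. All 7 neuron markers were lower at SAH 1d than in sham and 5 of them rose without the pair. Their sum was 4753 to 5683 CPM at SAH 1d, 6262 to 8389 CPM at SAH 7d, both without the pair, and 5821 to 9293 CPM in sham.

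Rises found only without the pair also included genes outside the lists. Slc22a6, an organic anion transporter, was at 3.6 to 8.56 CPM (median 6.05) in the 5 remaining SAH 1d libraries and 12.1 to 22.7 CPM (median 15.5) in the 5 remaining SAH 7d libraries (1.42, adjusted p = 0.00333 in edgeR). It is also 1 of the 7 markers of meningeal fibroblasts. Sptssb, a subunit of the enzyme that starts sphingolipid synthesis, was at 9.2 to 12.7 CPM (median 9.23) in the 5 remaining SAH 1d libraries and 19.5 to 33.2 CPM (median 26.1) in the 5 remaining SAH 7d libraries (1.34, adjusted p = 0.000323). Sptssb had been lower at SAH 1d than in sham (-1.79), and in SAH 7d-5 it was at 5.29 CPM, below every SAH 1d library. Meltf, a surface transferrin homologue, Ddc, the decarboxylase of dopamine and serotonin synthesis, and the dexamethasone-induced Ras gene Rasd1 rose by 1.24, 1.24 and 1.22 on the log2 scale, each from a level below sham on day 1. Within the lists, Bmp4, a growth factor that steers glial precursors, rose by 1.13 (adjusted p = 0.0223 in edgeR). It was the 1 of 16 tested growth factor and repair genes that rose, against 6.13% of all tested genes. In that list 3 fell, against 7.49%.

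For several immune functions, with all libraries, no member changed between the days and the median stayed above sham by size. MHC class I loading and immunoproteasome genes had median differences from sham of 1.45 at SAH 1d and 1.43 at SAH 7d on the log2 scale. None of the 17 changed between the days with all libraries and 1 fell without the pair, against 7.49% of all tested genes, and 12 were higher at SAH 1d than in sham, against 14.9%. The median log2 fold change of the 17 between the days was -0.0028 with all libraries, with 8 positive. Without the pair it was -0.47, with 3 positive. B2m, the light chain of class I molecules, lay at 419.7 to 1102 CPM (median 545) at SAH 1d and 337 to 1799.5 CPM (median 717) at SAH 7d, beside 222 to 415 CPM (median 372) in sham (0.33, 95% confidence interval -0.52 to 1.18). The interferon-stimulated genes had median differences from sham of 1.56 and 1.14, and none of 18 changed between the days with all libraries, while Irf1 (-1.0) and Gbp2 (-1.55) fell without the pair, a share of 2 in 18 beside 7.49% of all tested genes. The median log2 fold change of the 18 between the days was -0.27 with all libraries, with 3 positive. Without the pair it was -0.52, with 1 positive. Mx1, an antiviral GTPase, lay at 33.8 to 139 CPM (median 57.7) at SAH 1d and 2.77 to 222 CPM (median 42.6) at SAH 7d, a spread within each group that covered any difference between them (95% confidence interval -1.75 to 1.88).

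For complement and phagocytic microglia genes the direction of the median turned when SAH 7d-5 and SAH 1d-3 were left out. None of 18 complement and 17 phagocytic microglia genes changed with all libraries, 2 and 4 fell (against 7.49% of all tested genes) and 0 and 1 rose (against 6.13%) without the pair, and their median log2 fold changes went from 0.82 to -0.20 and from 1.28 to -0.26 when the pair was left out. Spp1, osteopontin, was at 10589 CPM in SAH 7d-5 and at 2.94 to 135 CPM (median 7.59) in the other SAH 7d libraries, beside 20.3 to 275 CPM (median 114) on day 1. Lgals3, a lectin of phagocytic cells, fell by 1.93 without the pair, and Itgax, the integrin CD11c, by 2.61, yet both were above every sham library in all 6 SAH 7d libraries, as were Clec7a and Gpnmb. C3, the central complement protein, lay at 49.2 to 64.2 CPM (median 54.2) at SAH 1d and 30.4 to 479 CPM (median 154) at SAH 7d, beside 4.0 to 18.5 CPM (median 9.34) in sham, and every SAH 7d library was above every sham library. Its log2 fold change between the days was 1.76 (adjusted p = 0.132 in edgeR) with all libraries, and it had an adjusted p of 0.104 without the pair. Apoe, the main lipid carrier of the brain, rose without the pair by 0.55 (adjusted p = 0.0277 in edgeR), from 1618 to 2371 CPM (median 1860.4) to 2178 to 3874 CPM (median 2659).

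Lysosomal and Fc receptor genes had positive medians with all libraries, 1.11 and 0.58 on the log2 scale, with no member called, and lower ones without the pair, 0.23 and 0.19. Ctsd, a lysosomal protease, was at 8488 CPM in SAH 7d-5 and at 316 to 979 CPM (median 394) in the other 5, beside 420.3 to 506 CPM (median 481) at SAH 1d. Mertk, a receptor for dying cells, rose without the pair (0.53, adjusted p = 0.00716 in edgeR), and Msr1, a scavenger receptor, fell (-2.12). Of 16 cholesterol synthesis genes none changed with all libraries and 4 rose without the pair (against 6.13% of all tested genes), by 0.25 (Fdps) to 0.38 (Srebf2). In Hmgcs1 and Insig1 every SAH 7d library was below every sham library, which held for 0.428% of all tested genes.

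Among the remaining metabolic lists, 11 genes of arachidonic acid metabolism had no change with all libraries. Without the pair the cyclooxygenases moved in opposite directions, with a log2 fold change of -1.13 for the inducible Ptgs2 and 1.1 for Ptgs1, which microglia carry, both called. With all libraries the fold change of Ptgs2 was larger and the days did not overlap, but it was not called (-1.79, adjusted p = 0.0678 in edgeR). Ptgs2 lay at 82.4 to 410.2 CPM (median 92.8) at SAH 1d and 21.5 to 61.3 CPM (median 52.9) at SAH 7d and Ptgs1 at 4.72 to 18.9 CPM (median 5.47) at SAH 1d and 7.97 to 30 CPM (median 13.3) at SAH 7d. The prostaglandin E synthase Ptges fell as well (-2.18). Of 14 arginine, proline and polyamine genes Oat was the 1 that changed with all libraries, and without the pair 5 fell and 2 rose. The shares over all tested genes were 7.49% lower and 6.13% higher. Those that fell included Odc1, the first enzyme of polyamine synthesis (-0.44), the inducible nitric oxide synthase Nos2 (-1.84, and -4.01 with all libraries, where it was not called) and the endothelial one, Nos3 (-0.80).

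No change with all libraries was found for the lists of myelin, hypoxia and glycolysis, vessels and barrier, NRF2 targets, metallothioneins, lipid efflux, neuropeptides and immediate early genes. Mbp, a main protein of myelin, lay at 5677 to 8578 CPM (median 6738) at SAH 1d and 4545 to 8279.5 CPM (median 6215) at SAH 7d, with a 95% confidence interval of the log2 difference of -0.55 to 0.24. The glycolysis gene Pgk1 had one of -0.35 to 0.16, the tight junction scaffold Tjp1 -0.43 to -0.028, and Sqstm1, an NRF2 target and autophagy receptor, -0.30 to 0.12. That of Tjp1 lay wholly on the lower side, but the gene was not called. The barrier gene Cldn5 was barely counted, at 0 to 9.71 CPM at SAH 1d and 0 to 7.1 CPM at SAH 7d without the pair, with medians of 0. The vessel gene Pecam1 was not among the genes counted. Egr1 and Arc, activity-driven genes, had far wider intervals, -0.90 to 1.53 and -1.62 to 1.34, so that no difference was detectable at this spread. Their list of immediate early and injury genes leaned lower by size, with a median log2 fold change of -0.69 and 2 of 16 members positive with all libraries. Of these 16, 5 had an unadjusted p below 0.05 in edgeR. Without the pair some members of these lists did change. Of 16 tested immediate early and injury genes 6 fell, against 7.49% of all tested genes, among them the injury factor Atf3 (-3.26) and Myc (-1.39). The metallothioneins Mt1 (-1.52) and Mt2A (-1.12), which bind zinc, fell, as 2 of 6 tested members of their list. So did 5 of 19 vessel genes, including Esm1, a marker of sprouting endothelium (-2.05), and Angpt2, which loosens vessels (-0.62). Both counts stand against 7.49% of all tested genes. Of 17 tested glucocorticoid and clock genes 4 fell without the pair, against 7.49% of all tested genes. The 2 that rose, against 6.13%, were the steroid-induced Fkbp5 (0.67) and Tsc22d3 (0.77). Of 15 myelin genes Pdgfra, a receptor of oligodendrocyte precursors, was the 1 that rose (0.34), a share near the 6.13% of all tested genes.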

How the data were processed

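Total RNA of rat cortex was sequenced by the authors with the NEBNext Ultra kit, reads were trimmed with fastp and aligned with HISAT2, and fragment counts per gene and FPKM were deposited as tables over all libraries. The submitters' processing notes also name DESeq2 1.16.1 and the mouse build mm9, whereas the paper names the rat genome Rnor_6.0. The counting tool is not given in the sources used here. The deposited counts are whole numbers and not normalized, and the deposited FPKM, fragments per kilobase of transcript scaled to depth, were used by the authors as expression values and here only in alternatives. Columns with the authors' own fold changes and p-values were not used.

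Of 30735 genes, 18444 passed edgeR's filterByExpr over 18 libraries, 3100 of them loci outside the annotation. SAH 7d was compared with SAH 1d with edgeR 4.0.16 (quasi-likelihood test, TMM, R 4.3.3), two-sided, with Benjamini-Hochberg adjustment over all tested genes, on 12 libraries and on 10 without SAH 7d-5 and SAH 1d-3. The same test set SAH 1d and SAH 7d against sham. These comparisons share libraries, so they are not independent. CPM are counts scaled by the TMM-adjusted library size. SE and 95% confidence intervals are those of the log2 fold change. Counts come from amplified fragments without molecular identifiers, so they are not counts of molecules. The labels give 1 library per sample and say nothing of shared litters or cages. The scripts were tested on simulated counts.

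The comparison, the 38 gene lists and the marker lists were chosen with earlier results of these data known. Genes named by rule were up to 12 of the largest increases and 12 of the largest decreases among DEGs with a symbol, a mean of at least 1 CPM in the higher group and no overlap (11 increases qualified), up to 8 in each direction that were DEGs only without the pair, up to 3 changed members of each list by p and, for lists without one, the 2 most abundant. Other list members named in the text were chosen after their values were seen, and a few genes are not reported here. Alternatives were DESeq2 1.42.0, its size factors, limma 3.58.1 (voom, or log2 FPKM plus 1 or 0.1), a robust fit, all 18 libraries, a replicate block, other filters and left-out libraries. Leaving out SAH 1d-4 and SAH 1d-6 was added after the data were seen. Promoter windows of 150 bases came from RefSeq (GRCr8).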

Additional observations from a re-analysis of the deposited data

Results flagged for a closer look

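The outermost library was set against the whole range of its group of 6 values, as log2 of CPM plus 1. This was done for the genes named by rule and reported and for 13 marker lists, in SAH 1d and in SAH 7d. In 55 of 212 groups the outermost library stood apart from the rest by more than 0.625 of that range. SAH 7d-5 was the outermost library in 36 and SAH 1d-3 in 16. Some of these genes were named because they were DEGs only without SAH 7d-5 and SAH 1d-3. Flags of this pair therefore follow in part from how the genes were chosen. The groups also share the same libraries, so these counts describe the pair and test nothing.

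The ratio of the gap to the range is given in parentheses. Of the neutrophil list 3 of 10 markers passed the filter, and of the T and B cell list 4 of 12. In SAH 7d-5 the neutrophil markers below the filter were at no more than 0.272 CPM. Those of the T and B cell list were at no more than 1.51 CPM there, apart from Cd8b at 60.9 CPM. Flags of both lists therefore rest on few markers. SAH 7d-5 was high for Apod (0.642), Apoe (0.752), C1qa (0.655), Ccl12 (0.764), Ccl2 (0.845), Ccl7 (0.809), Col3a1 (0.788), Ctsd (0.657), Cxcl1 (0.947), Gas6 (0.714), Kng1 (0.921), Mcm4 (0.911), Mthfd2 (0.63), Psap (0.834), Ptx3 (0.723), Shmt2 (0.807), Tfpi (0.752) and Tnf (0.883), and for the marker lists of meningeal fibroblast (0.65), neutrophil (0.772), macrophage and monocyte (0.776) and T and B cell (0.711). SAH 7d-5 was low for Arc (0.85), Cck (0.827), Cyp51 (0.712), Egr1 (0.657), Gria2 (0.856), Hmgcs1 (0.767), Nefl (0.751), Pgk1 (0.628), Ptgs2 (0.673), Snap25 (0.768), Sptssb (0.699), Stmn2 (0.89) and Syt1 (0.856), and for the marker lists of neuron (0.741).

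SAH 1d-3 was high for Ccl2 (0.713), Ccl7 (0.764), Ciita (0.723), Cxcl1 (0.724), Hbegf (0.692), Il11 (0.638), Kng1 (0.734), Plat (0.681) and Sele (0.642), and for the marker lists of neutrophil (0.71) and macrophage and monocyte (0.753). SAH 1d-3 was low for Gas6 (0.712), Gria2 (0.67) and P2ry12 (0.728), and for the marker lists of neuron (0.722) and microglia (0.865). Outside these libraries, Sptssb was high in SAH 1d-5 (0.671), Esr1 in SAH 7d-3 (0.729) and the mean of the endothelial cell markers in SAH 7d-2 (0.646).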

How the results depend on the processing

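For SAH 7d versus SAH 1d, 128 DEGs (21.9% higher at SAH 7d) became 388 with DESeq2 (42.0% higher), 552 with limma voom (22.1%), 289 with all 18 libraries in 1 fit (37.7%), 79 with limma on log2(FPKM + 1) without a filter (11.4%), 45 without SAH 1d-4 and SAH 1d-6 (2.22%), 494 without SAH 7d-5 and SAH 1d-3 and 559 with DESeq2 without the latter pair. Leaving out 1 library gave 63 (without SAH 7d-2) to 453 (without SAH 7d-5). The 494 DEGs of 10 libraries became 322 with at least 10 counts in every library, 188 with log2(FPKM + 1) and 327 without SAH 1d-4 and SAH 1d-6 as well, and 423 to 519 without 1 further library. For SAH 1d versus sham, 1224 DEGs became 782 with all 18 libraries, 492 with log2(FPKM + 1) and 473 with that and no filter, and 1008 to 1326 without 1 library. For SAH 7d versus sham, 0 DEGs became 370 with DESeq2, 232 with DESeq2 without the pair, 1 with voom, 9 with all 18 libraries, and 0 to 3 without 1 library (3 without SAH 7d-4). The 17 lists with a changed member became 28 with DESeq2, 38 without SAH 7d-5 and SAH 1d-3, 6 without SAH 1d-4 and SAH 1d-6, and 7 (without SAH 7d-2) to 33 (without SAH 7d-5) without 1 library. The 5 changed MHC class II genes became 0 without SAH 1d-4 and SAH 1d-6 and 3 to 6 without 1 library, while heat shock chaperones had 8 to 11 changed members without 1 library. The cause of these shifts was not tested.

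With the replicate number as a block, the comparison gave 27 DEGs (3 higher, 24 lower), 6 lists with a changed member and 0 changed class II genes. The numbers do not pair the samples: same-numbered SAH 1d and SAH 7d libraries correlated at -0.25 to 0.20 in their deviations from the group means, and 1 of 6 correlated best with its own number. Of 39 named genes called between the days, 6 (Hspa1a, Hspb1, Hspd1, Hsph1, Chac1 and Hbegf) kept the call under every alternative run, and 16 with each library left out in turn. In the single fits, DESeq2 ended 0 of the 39 calls, log2(FPKM + 1) 5, the block 29 and leaving out SAH 1d-4 and SAH 1d-6 29, and no called gene reversed. With 6 libraries a group, differences smaller than the intervals given were not detectable.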
